A study of Mus musculus with 16 samples.

Results

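The 40 genes described here carry out and control mitosis. They were chosen by symbol, as kinases, checkpoint proteins, kinetochore and spindle proteins and their partners, and each symbol matched 1 of the 49585 gene rows in each of 2 count tables of mouse C2C12 cells, an immortal myoblast line that stops dividing and fuses into myotubes when serum is lowered. Their roles were entry into mitosis (6 genes), the mitotic kinases *Plk1* and *Aurka* (2), the chromosomal passenger complex (4), the spindle checkpoint (4), centromere and kinetochore (8), spindle motors and microtubule proteins (8), anaphase and proteolysis (4), cytokinesis (2) and chromosome structure (2). All 40 passed the filter on low counts in both tables.

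Total RNA was sequenced in 16 libraries. The first table compared wild-type cells (WT) with cells in which both catalytic subunits of AMPK, the kinase that senses low cellular energy, had been disrupted with CRISPR-Cas9 (AMPK-KO), as myoblasts (d0) and after 8 days in low serum (d8), giving 4 groups of 2 libraries. The other table set AMPK-null cells whose endogenous *Tet2* gene carried a FLAG-BirA tag, with EGFP, on an otherwise normal TET2 (TET2-WT) beside AMPK-null cells whose tagged TET2 also had serine 97 changed to glutamate to mimic phosphorylation (TET2-S97E), all as d0 myoblasts. AMPK-KO cells were derived as clones, and a legend of the study speaks of independent AMPK-KO lines, but the labels tie none of those 4 libraries to a clone or line, so their replicates may differ by line. Each TET2 genotype had 2 clones with 2 replicates each, and 2 replicates of a clone share that clone. All 8 libraries of the second table therefore carried the AMPK disruption and the tag, and no untagged cells stood beside them. Depth per library ran from 17883417 to 24663079 counts for WT and AMPK-KO and from 19801909 to 37790358 counts for the TET2 clones. Elsewhere replicates carried only a number, and no source used here said that they came from separate cultures, so p-values measure the spread between these libraries, which may be technical.

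Gene counts could only partly check the labels. *Prkaa1*, which encodes AMPK alpha 1, was counted 3287 and 2925 times in the WT d0 libraries, against 1522 and 1669 for AMPK-KO. In d8 cells the count was 2290 and 2661 for WT, against 2043 and 1698 for AMPK-KO. *Prkaa2*, for alpha 2, had 35 and 33 counts in WT d0, 4 and 9 in AMPK-KO d0, 113 and 216 in WT d8, and 31 and 17 in AMPK-KO d8. Both were lower in every AMPK-KO library than in the WT libraries of the same day, although a count over the whole gene does not show whether the edited exon is intact. *Tet2*, the gene edited in the second table, stood at 34.2 and 22.5 CPM (counts per 1e+06 counts, with TMM-scaled library sizes) in TET2-WT clone 1, 58.4 and 56.4 CPM in clone 2, 12.9 and 21.95 CPM in TET2-S97E clone 1, and 7.87 and 22.1 CPM in clone 2. Every TET2-S97E library was below every TET2-WT library, by little for the closest pair, and replicate 1 of each TET2-S97E clone was well below replicate 2. These counts do not show the changed codon.

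Of the myoblast markers, vimentin (*Vim*) or desmin (*Des*) was the most abundant in every library, and neither is specific to myoblasts. *Myod1*, the myogenic master regulator, was at 77.4 and 132.8 CPM in WT d0 and at 7.90 and 13.6 CPM in AMPK-KO d0. In d8 cells it was at 143.8 and 164.5 CPM for WT and at 58.1 and 115.5 CPM for AMPK-KO. In the second table it was at 7.14 and 10.4 CPM in TET2-WT clone 1, 18.03 and 26.1 CPM in clone 2, 147.3 and 144.4 CPM in TET2-S97E clone 1, and 27.5 and 29.1 CPM in clone 2. It was thus below both WT d0 values in AMPK-KO d0, in TET2-WT and in TET2-S97E clone 2, but not in TET2-S97E clone 1. The 2 tables were normalized separately. *Myf5*, a related myogenic factor, was at 15.8 CPM or more in all 16 libraries. Of 8 markers of other lineages the tubulin gene *Tubb3*, a marker of neurons, was the highest, at 129 and 229.9 CPM in WT d0, 96.1 and 63.3 CPM in WT d8, 11.5 and 8.69 CPM in AMPK-KO d0, and 1.02 and 1.51 CPM in AMPK-KO d8. It was called lower in AMPK-KO than in WT at d0 (log2 difference −4.15, adjusted p = 0.00703) and at d8 (−5.99, adjusted p = 0.00329), both by edgeR's quasi-likelihood test, and lay between 0.403 and 4.24 CPM in the TET2 clones. The other 7 summed to between 0.0542 and 1.46 CPM in all 16 libraries, and *Ptprc*, the leukocyte marker, was at 0 in 13 of them.

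Mitosis begins when CDK1 bound to a B-type cyclin phosphorylates a large set of proteins. Chromosomes condense, a spindle of microtubules attaches to the kinetochores built on centromeres, and the spindle checkpoint holds back the anaphase-promoting complex (APC/C), a ubiquitin ligase, until every kinetochore is attached. CDC20 then activates APC/C, separase cuts cohesin, and the cell divides. Transcripts of these genes rise together in late S phase and G2, with FOXM1 and B-MYB as activators and the DREAM complex as the repressor that keeps them low in resting cells, and they are shut off when myoblasts leave the cell cycle to form myotubes.

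As levels per length, in TPM (transcript abundance scaled for merged exon length and for the library), the 40 genes spanned a wide range in WT d0 cells. *Cdc20*, the APC/C activator, was the highest at 225.9 ± 80.1 TPM (SD, n = 2) and *Cdc25c*, a phosphatase that activates CDK1, the lowest at 19.2 ± 11.3 TPM. *Top2a*, the topoisomerase that untangles sister chromatids, followed *Cdc20* at 189.6 ± 82.2 TPM, and their difference was smaller than either SD. *Cdc20* also led in AMPK-KO d0 (232.8 ± 31.4 TPM), in TET2-S97E (79.7 ± 33.3 TPM, n = 4), in TET2-WT and, only just above *Top2a*, in AMPK-KO d8. *Cdc25c* was the lowest of the 40 in every group. In WT d8 the top genes were *Ube2c*, which encodes an APC/C partner enzyme, at 18.5 ± 2.1 TPM and *Ccna2*, cyclin A2, at 18.4 ± 1.5 TPM, values that did not differ beyond their spread.

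The mix of roles varied much less than the level. Spindle motors and microtubule proteins made up 17.7% to 22.2% of the summed CPM of the 40 genes in WT and AMPK-KO libraries and 19.0% to 22.1% in the TET2 clones. Genes of entry into mitosis made up 14.5% to 16.5% and 14.2% to 17.0%. Chromosome structure genes ranged more widely, at 13.1% to 18.4% and 11.45% to 18.1%. The mitotic kinases made up 2.41% to 3.62% and 2.57% to 3.59%. The summed CPM itself was 3438 and 6285 in WT d0, 4557 and 4857 in AMPK-KO d0, 499.5 and 509.3 in WT d8, and 1065 and 465.0 in AMPK-KO d8. In the second table it was 989.6 and 930.1 in TET2-WT clone 1, 393.4 and 402.7 in TET2-WT clone 2, 1443 and 790.2 in TET2-S97E clone 1, and 1879 and 1428 in TET2-S97E clone 2. Every d0 library of the first table stood above every d8 library, and all 8 libraries of the second table, although labelled day 0, stood below all 4 d0 libraries of the first. The tables were normalized separately and share no library, so experiment and genotype cannot be told apart in that last comparison.

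**Figure D1:**
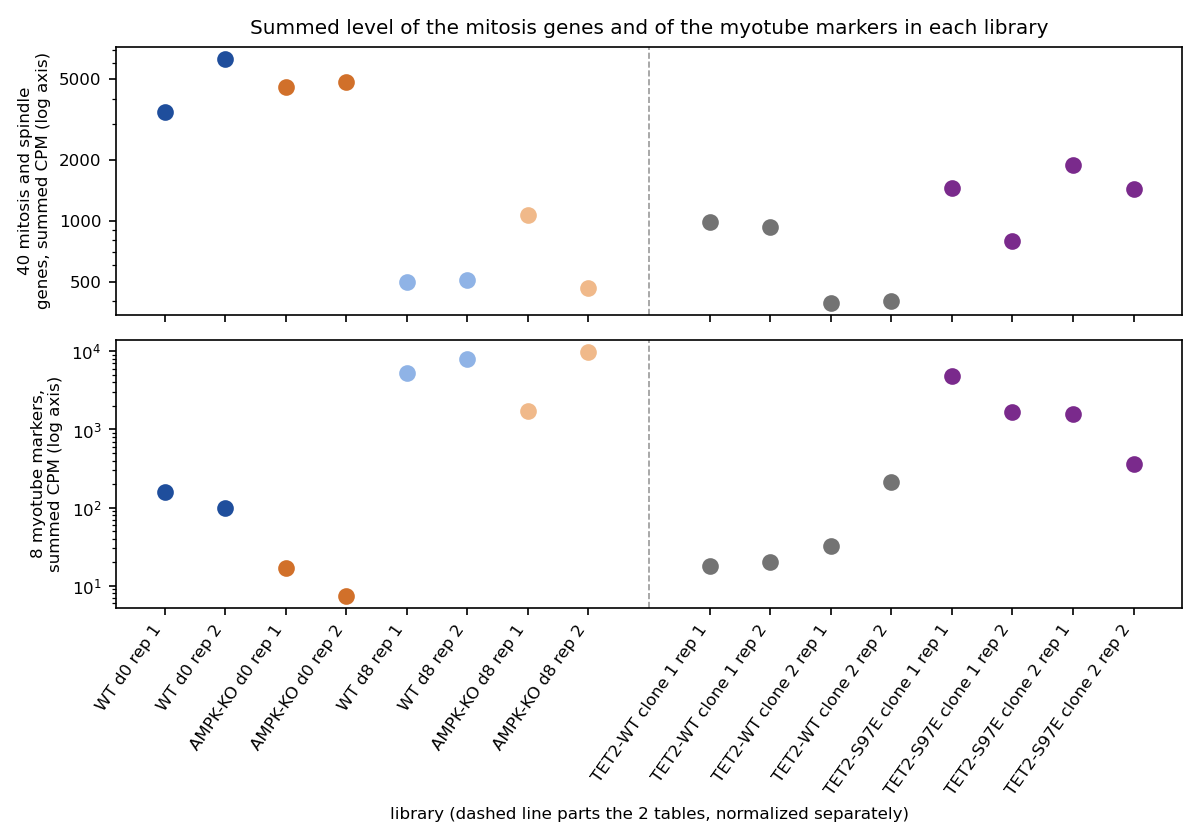
Summed CPM of the 40 mitosis and spindle genes (upper panel) and of 8 myotube markers (lower panel) in each of 16 libraries, on log axes, with 1 point per library coloured by group. The mitosis sum drops from 3438 or more at d0 to 1065 or less at d8 in the first table, and AMPK-KO d8 replicate 1 is the highest d8 library in the upper panel and the lowest in the lower one.

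Replicates of some groups differed in all 40 genes at once. In WT d0 all 40 were higher in replicate 2, by a median of 1.79-fold. In AMPK-KO d8 all 40 were higher in replicate 1, by a median of 2.35-fold. In TET2-S97E clone 1 all 40 were higher in replicate 1, by 1.83-fold, and in clone 2 36 of 40 were, by 1.38-fold. The other groups had no such tilt, with 16 to 27 of 40 higher in replicate 2. Over all genes tested, 48.3% to 53.1% were higher in replicate 2 of any group. Results are given below with and without these libraries. The mitochondrial share of counts was 1.36% and 0.568% in replicates 1 and 2 of WT d0. It was 1.16% and 0.666% in AMPK-KO d0, 1.43% and 0.970% in WT d8, and 0.977% and 0.683% in AMPK-KO d8. Shares in the TET2 clones are given with their genotype comparison. The part of this share in the mitotic levels was not tested.

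**Figure D2:**
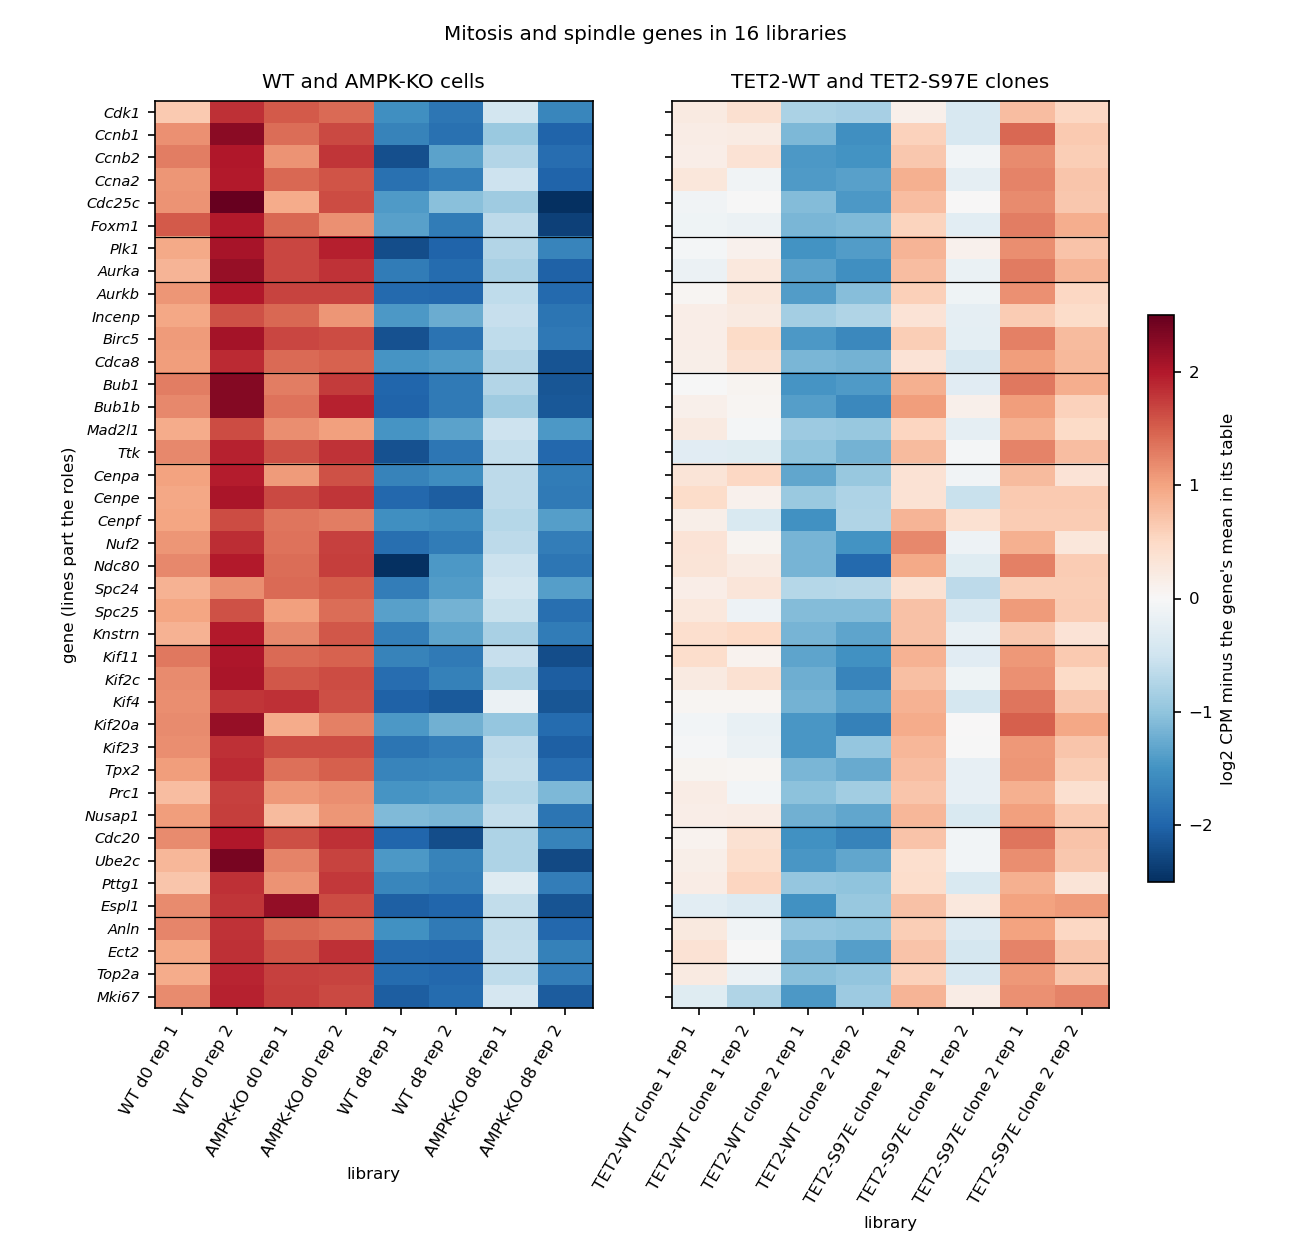
Heat map of the 40 genes (rows, grouped by role) in the 8 libraries of each table (columns), with colour for log2 CPM minus the mean of that gene over its own table. The 40 rows move together: WT d0 replicate 2 is the darkest red column of the left panel for most genes, and the 2 TET2-WT clone 2 columns are the bluest of the right panel.

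All 40 genes fell between d0 and d8 in WT cells. Fitted falls ranged from 5.86-fold to 13.4-fold with a median log2 fold change of −3.36 over the 40, against 0.01 over all 14329 genes tested. All 40 passed edgeR's quasi-likelihood test (adjusted p from 0.0143 to 0.0320), where 6.58% of all genes were called lower. All 40 also had both d8 libraries below both d0 libraries, an order found for 30.2% of all genes. In bulk RNA, fewer dividing cells and less RNA per dividing cell cannot be told apart.

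The genes of entry into mitosis all fell. *Cdk1* (ENSMUSG00000019942.12, chr10:69335146-69352938, minus strand, build GRCm38), the kinase itself, stood at 114 and 257 CPM in WT d0 and at 25.3 and 20.9 CPM in WT d8. The change was −3.01 on the log2 scale (SE 0.49, adjusted p = 0.0156, edgeR's quasi-likelihood test). *Ccnb1* (ENSMUSG00000041431.16, chr13:100778650-100786570, minus strand), its cyclin partner B1, went from 99.9 and 217.5 CPM to 14.3 and 12.5 CPM, a change of −3.56 (SE 0.48). *Foxm1* (ENSMUSG00000001517.14, chr6:128362967-128376146, plus strand), a transcription factor that activates many genes of this set, went from 116 and 159 CPM to 15.6 and 12.1 CPM, a change of −3.32 (SE 0.52). For each of the 3 the d0 libraries differed from each other by less than they differed from the d8 libraries on the log2 scale.

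The kinases and the passenger complex behaved likewise. *Plk1* (ENSMUSG00000030867.7, chr7:122159439-122169873, plus strand), a kinase of centrosomes and kinetochores, went from 48.97 and 105.5 CPM at d0 to 5.45 and 6.33 CPM at d8, a log2 change of −3.71 (SE 0.46). *Aurkb* (ENSMUSG00000020897.12, chr11:69045647-69051664, plus strand), the kinase of the passenger complex that corrects faulty attachments, went from 43.9 and 81.7 CPM to 5.28 and 5.20 CPM, a log2 change of −3.58 (SE 0.48). Its partner *Incenp*, the scaffold of that complex, showed the smallest fall of the 4 complex members at −2.65.

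Of the spindle checkpoint genes, *Bub1*, a kinase that recruits the others to kinetochores, had the largest fall of all 40 at 13.4-fold (log2 change −3.75, SE 0.54). *Bub1b* (ENSMUSG00000040084.9, chr2:118598211-118641591, plus strand), which encodes the checkpoint protein BubR1, went from 76.9 and 163.8 CPM to 8.37 and 9.75 CPM, a log2 change of −3.73 (SE 0.52). *Mad2l1*, whose product binds CDC20 in the checkpoint complex, fell less, by 6.61-fold. Among kinetochore genes, *Ndc80* (ENSMUSG00000024056.9, chr17:71496100-71526857, minus strand), which holds the microtubule end, went from 48.8 and 84.2 CPM to 3.74 and 7.83 CPM, a log2 change of −3.51 (SE 0.55). *Cenpf* (ENSMUSG00000026605.14, chr1:189640606-189688086, minus strand), a large protein of the outer kinetochore, went from 92.8 and 146.3 CPM to 16.2 and 15.7 CPM, a log2 change of −2.91 with the smallest standard error of the 40 (0.30). Within the NDC80 complex, *Ndc80* and *Nuf2* fell 11.4-fold and 10.1-fold, while *Spc24* and *Spc25*, its other subunits, fell 5.93-fold and 6.01-fold. Whether these falls differ was not tested.

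For the spindle, *Kif11* (ENSMUSG00000012443.3, chr19:37376403-37421859, plus strand), the motor that pushes the poles apart, went from 101.3 and 163.2 CPM to 12.8 and 11.9 CPM, a log2 change of −3.42 (SE 0.52). *Tpx2* (ENSMUSG00000027469.16, chr2:152847964-152895321, plus strand), which nucleates spindle microtubules and activates Aurora A, went from 141.2 and 249.0 CPM to 21.8 and 22.1 CPM, a log2 change of −3.15 (SE 0.45). The smallest fall of all 40 was that of *Nusap1*, a microtubule-bundling protein, at 5.86-fold. Of the anaphase genes, *Cdc20* (ENSMUSG00000006398.15, chr4:118432901-118437352, minus strand) went from 86.5 and 152.4 CPM to 9.69 and 8.25 CPM, a log2 change of −3.73 (SE 0.39), and was among the 3 largest falls with *Bub1* and *Bub1b*. *Espl1* (ENSMUSG00000058290.3, chr15:102296266-102324357, plus strand), which encodes separase, went from 57.7 and 88.4 CPM to 6.17 and 6.47 CPM, a log2 change of −3.53 (SE 0.52).

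In cytokinesis, *Anln* (ENSMUSG00000036777.8, chr9:22332012-22389188, minus strand), the scaffold of the contractile ring, went from 307.4 and 461.7 CPM to 45.7 and 38.6 CPM, a log2 change of −3.19 (SE 0.44). *Top2a* (ENSMUSG00000020914.17, chr11:98992943-99024189, minus strand) went from 324.2 and 644.7 CPM to 45.4 and 44.2 CPM, a log2 change of −3.43 (SE 0.45). *Mki67* (ENSMUSG00000031004.8, chr7:135689784-135716361, minus strand), which encodes the Ki-67 protein that coats mitotic chromosomes and is widely used to mark dividing cells, went from 192.0 and 319.0 CPM to 20.2 and 22.3 CPM, a log2 change of −3.59 (SE 0.54). For all 3 genes WT d0 replicate 2 was the higher d0 library, and both d8 libraries lay below both d0 libraries.

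The calls in WT depended on single libraries. Without WT d0 replicate 2, WT d8 replicate 1 or WT d8 replicate 2, edgeR called 0 of the 40 and 0 of all genes tested lower, although all 40 were lower with an unadjusted p under 0.05 in each of these fits, where 9.53% to 10.9% of all genes were. DESeq2 called all 40 with every library in, where it called 9.15% of all genes lower. Without WT d0 replicate 1 edgeR called all 40, where it called 8.46%.

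AMPK-KO cells showed the same direction. All 40 genes fell from d0 to d8, from 3.995-fold to 8.78-fold, with a median log2 fold change of −2.66 against 0.02 over all genes tested. All 40 passed edgeR's quasi-likelihood test (adjusted p from 0.0198 to 0.0471), where 4.95% of all genes were called lower, and all 40 had both d8 libraries below both d0 libraries, an order found for 28.9% of all genes. *Espl1* fell the most, from 117.1 and 79.2 CPM to 16.6 and 5.73 CPM (log2 change −3.13, SE 0.50), followed by *Bub1b*, from 85.7 and 126.9 CPM to 17.9 and 7.72 CPM (−3.05, SE 0.51), and *Aurka*, which encodes the centrosome kinase Aurora A, from 71.3 and 78.4 CPM to 12.7 and 5.54 CPM (−3.03, SE 0.52). In each of the 3 the d8 libraries differed by more than the d0 libraries on the log2 scale (by 1.53 against 0.56 for *Espl1*), though not in CPM for *Espl1* and *Bub1b*, and d8 replicate 1 was the higher.

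The other genes followed that pattern of values. *Cdk1* was at 212 and 195 CPM in AMPK-KO d0 and at 52.8 and 23.6 CPM in AMPK-KO d8, a log2 change of −2.42 (SE 0.48). *Ccnb1* was at 119 and 143 CPM and then at 24.0 and 11.4 CPM (−2.89, SE 0.46). *Foxm1* was at 108 and 89.2 CPM and then at 25.5 and 8.01 CPM (−2.55, SE 0.50). Replicate 1 was the higher d8 library for all 3 and still lay below both d0 libraries. *Plk1* went from 81.2 and 97.4 to 15.3 and 8.06 CPM (−2.93, SE 0.44) and *Aurkb* from 66.2 and 65.7 to 13.2 and 5.29 CPM (−2.83, SE 0.46). *Ndc80* went from 56.1 and 70.9 to 14.6 and 6.07 CPM (−2.61, SE 0.52) and *Cenpf* from 119.6 and 114.3 to 28.7 and 18.1 CPM (−2.32, SE 0.29). These kinase and kinetochore genes all had their lowest AMPK-KO value in d8 replicate 2. *Kif11* went from 107.7 and 111.7 to 27.2 and 8.69 CPM (−2.61, SE 0.50), *Tpx2* from 177.2 and 192.8 to 44.7 and 18.2 CPM (−2.55, SE 0.44) and *Cdc20* from 117.2 and 134.9 to 22.5 and 11.99 CPM (−2.87, SE 0.38). *Anln* went from 353.5 and 341.4 to 85.7 and 33.8 CPM (−2.54, SE 0.43), *Top2a* from 558.9 and 552.6 to 110.5 and 51.8 CPM (−2.78, SE 0.44) and *Mki67* from 279.8 and 263.8 to 62.6 and 19.9 CPM (−2.72, SE 0.52).

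In AMPK-KO too the count of calls depended on single libraries. By edgeR's quasi-likelihood test it was 0 without AMPK-KO d0 replicate 1 or replicate 2, where at most 1 of all genes tested was called lower. It was 20 without AMPK-KO d8 replicate 2 (0.684% of all genes), 20 without WT d8 replicate 2 (1.17%), 26 without WT d8 replicate 1 (1.55%) and 40 without AMPK-KO d8 replicate 1 (2.72%, median of the 40 −3.43). In each of these fits all 40 were lower with an unadjusted p under 0.05, where 9.03% to 11.4% of all genes were.

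**Figure D3:**
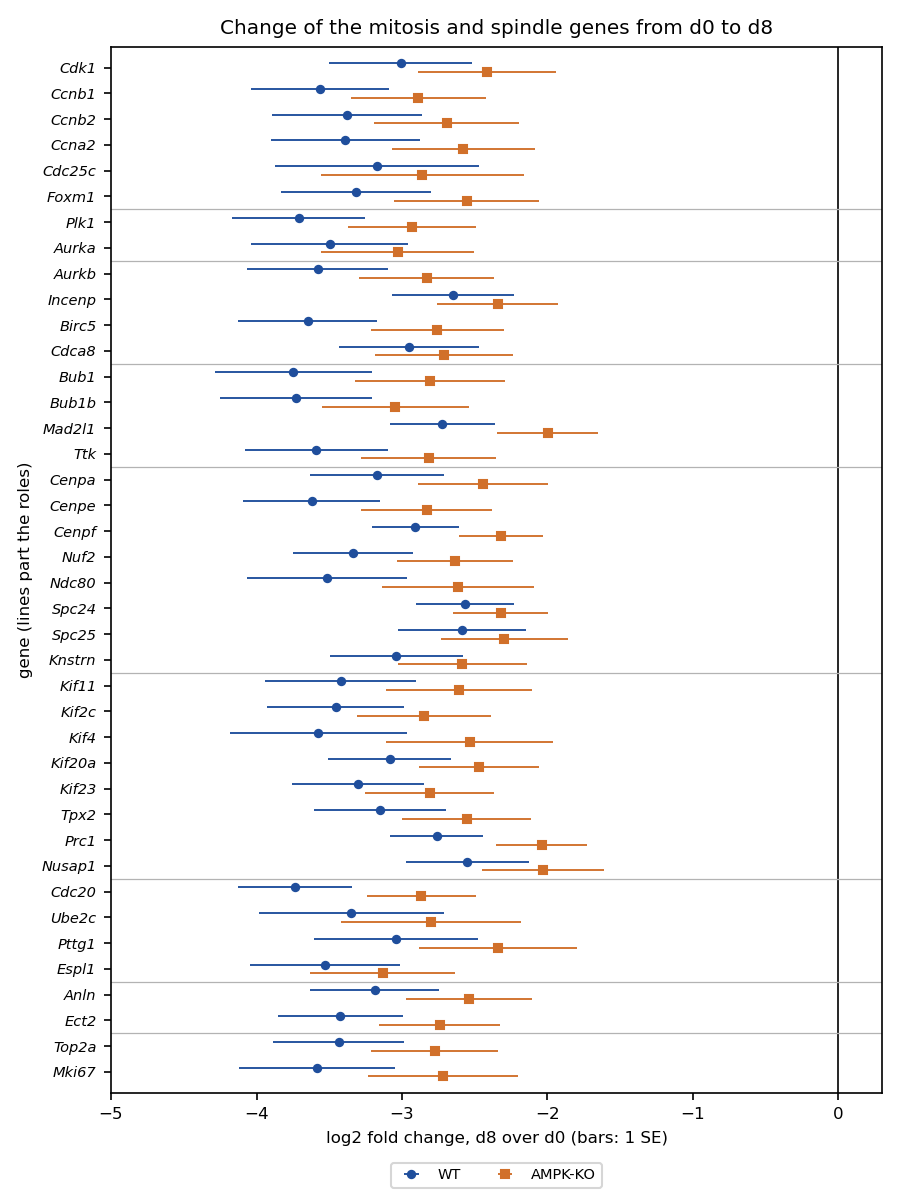
Log2 fold change from d0 to d8 of each of the 40 genes (rows, grouped by role) in WT (circles) and AMPK-KO cells (squares), with bars of 1 SE from the edgeR fit. All points lie between −3.75 and −2.00, the AMPK-KO point lies to the right of the WT point for all 40 genes, and the bars of a gene overlap except for *Mad2l1*, *Prc1* and *Cdc20*.

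Of 71 other mitotic genes, 66 were called lower in WT and 61 in AMPK-KO, against the 6.58% and 4.95% of all genes given above, and none was called higher. Of these, 23 shared the lowest adjusted p in WT (0.0143, edgeR's quasi-likelihood test), and the 3 with the lowest unadjusted p were the motor *Kif20b* (log2 change −3.19 in WT and −2.46 in AMPK-KO), the kinetochore gene *Zwilch* (−3.29 and −2.63) and *Hmmr*, a spindle-associated hyaluronan receptor (−3.52 and −2.86). Of 25 DNA replication genes 22 were called lower in WT and 22 in AMPK-KO, and the lowest unadjusted p in WT belonged to the helicase subunits *Mcm2* (−2.38 and −2.20) and *Mcm7* (−2.03 and −1.72) and to *Pola1*, the catalytic subunit of DNA polymerase alpha (−2.39 and −1.77). Of 18 condensin and cohesin genes, 12 were called lower in WT and 9 in AMPK-KO, and the lowest unadjusted p belonged to the condensin subunits *Ncapg* (−3.88 and −2.94) and *Ncapd2* (−2.72 and −2.32) and to *Sgo2a*, a protector of centromeric cohesin (−3.09 and −2.44). Of the APC/C genes, 3 of 16 were called lower in WT and 2 of 16 in AMPK-KO (10 and 11 had lower values), with a median of −0.21 and −0.30, and the steepest fall was that of *Fbxo5* (−3.41 and −2.62), an inhibitor of APC/C and not a subunit. Of the 12 genes of the DREAM and B-Myb complexes, 5 and 4 were called lower, including *Mybl2*, which encodes B-MYB (−3.67 and −3.40), and *Rbl1*, a pocket protein of the retinoblastoma family (−2.09 and −1.38). Of 9 tested cell cycle exit genes, 3 were called higher in each genotype, including *Cdkn1a*, which encodes the CDK inhibitor p21 (1.88 and 1.89), and *Ccnd3*, which encodes cyclin D3 (1.30 and 0.94). In WT 2 others of that list were called lower, the CDK inhibitor gene *Cdkn2c* (−1.13) and *Ccnd1*, which encodes cyclin D1 (−2.65). In the same comparisons all 8 myotube markers were called higher in both genotypes. Of all 14329 genes tested, 828 were called higher in WT and 689 in AMPK-KO, the background for both of these lists.

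Because the 40 genes moved together, their promoters were searched for the cell cycle genes homology region (CHR), a short element through which DREAM, B-MYB and FOXM1 complexes are known to act, and for the box bound by NF-Y, which often lies upstream of it. RefSeq windows of 300 bases (GRCm38.p6, 250 before and 50 after the annotated start) were found for 32 of the 40 genes. *Ccna2*, *Cdc25c*, *Foxm1*, *Aurkb*, *Incenp*, *Spc24*, *Kif20a* and *Tpx2* had no window. The letters TTTGAA or TTTAAA (CHR) were searched on both strands, as was CCAAT (NF-Y box). A CHR hexamer was in 26 of the 32 windows (81.2%) and in those of 30.6% of all 27025 genes with a window. TTTGAA was in 23 of 32 (71.9%, against 20.2% of all genes), TTTAAA in 9 (28.1%, against 14.9%) and CCAAT in 23 (71.9%, against 41.1%). Both elements were in 22 of 32 (68.8%, against 12.2%), and *Mad2l1*, *Nuf2*, *Knstrn*, *Nusap1* and *Pttg1* held none of the 3 sequences. A match is a description of the letters, and binding was not measured.

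The 120 bases before the RefSeq start are printed for the 8 genes with per-library values above whose stretch holds a CHR hexamer, to show the spacing of the elements. That start need not match the GENCODE gene spans given above. The stretches of *Cdk1*, *Ccnb1*, *Cdc20* and *Espl1* run partly into those spans, so distances here hold for the RefSeq start only. Each runs 5′ to 3′ in the direction of the gene, with CHR hexamers and NF-Y boxes in capitals on either strand (TTCAAA and ATTGG are the reverse complements). The stretches are chr10:69352913-69353032 (minus strand) for *Cdk1*, chr13:100786487-100786606 (minus) for *Ccnb1*, chr7:122159315-122159434 (plus) for *Plk1*, chr19:37376262-37376381 (plus) for *Kif11*, chr4:118437344-118437463 (minus) for *Cdc20*, chr15:102296173-102296292 (plus) for *Espl1*, chr11:99024190-99024309 (minus) for *Top2a* and chr7:135716380-135716499 (minus) for *Mki67*.
Cdk1: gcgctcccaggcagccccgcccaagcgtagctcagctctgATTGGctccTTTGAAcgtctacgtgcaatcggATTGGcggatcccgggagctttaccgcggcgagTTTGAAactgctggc
Ccnb1: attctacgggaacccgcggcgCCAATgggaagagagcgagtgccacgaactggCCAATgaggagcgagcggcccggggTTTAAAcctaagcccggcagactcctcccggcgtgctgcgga
Plk1: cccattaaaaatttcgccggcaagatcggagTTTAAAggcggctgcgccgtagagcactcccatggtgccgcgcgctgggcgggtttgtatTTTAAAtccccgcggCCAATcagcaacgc
Kif11: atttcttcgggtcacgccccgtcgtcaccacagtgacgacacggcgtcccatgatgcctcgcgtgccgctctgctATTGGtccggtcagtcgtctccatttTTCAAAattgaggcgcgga
Cdc20: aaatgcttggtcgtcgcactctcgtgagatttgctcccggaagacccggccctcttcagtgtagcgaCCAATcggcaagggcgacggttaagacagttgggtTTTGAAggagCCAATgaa
Espl1: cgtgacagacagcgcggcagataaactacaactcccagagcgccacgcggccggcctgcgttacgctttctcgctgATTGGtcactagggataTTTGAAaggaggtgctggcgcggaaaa
Top2a: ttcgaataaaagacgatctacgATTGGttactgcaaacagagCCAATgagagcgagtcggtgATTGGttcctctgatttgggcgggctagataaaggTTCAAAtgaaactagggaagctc
Mki67: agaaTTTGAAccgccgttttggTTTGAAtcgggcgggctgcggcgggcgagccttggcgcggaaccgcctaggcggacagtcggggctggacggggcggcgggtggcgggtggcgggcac
In *Cdk1*, TTTGAA began 71 and 15 bases before the RefSeq start, with an NF-Y box between them at 48. In *Espl1*, the NF-Y box at 44 and the hexamer at 27 lay close together, and in *Kif11* they lay at 45 and 19. *Mki67* had both of its hexamers farther out, at 116 and 98, and no NF-Y box in the printed stretch. Across the 32 windows 28 of 39 CHR matches began within 50 bases of the start, on either side, and 41 of 53 NF-Y boxes began in the 150 bases before it. No other set of promoters was compared by position.

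**Figure D4:**
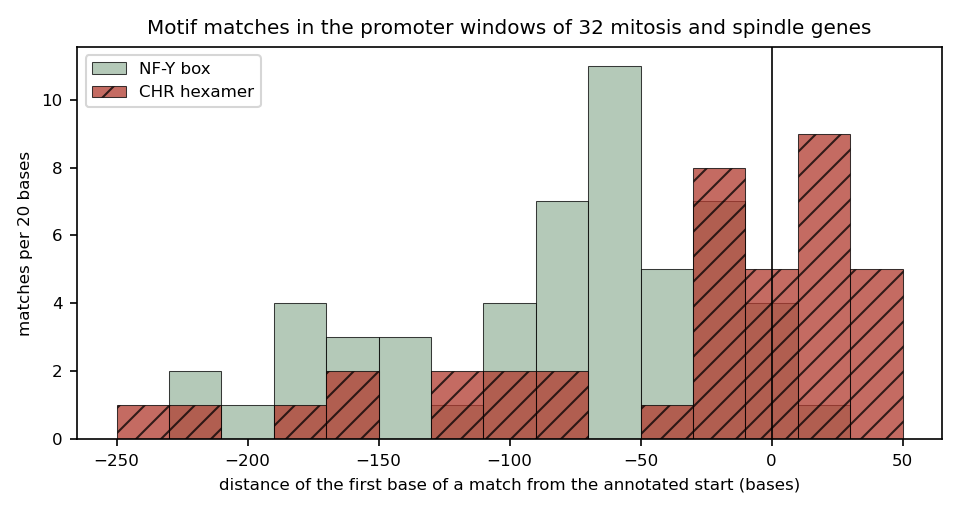
Number of CHR hexamer matches (hatched) and NF-Y box matches (plain) per 20 bases, by distance of their first base from the annotated RefSeq start, over the 32 promoter windows. CHR matches pile up around the start (median −15), and NF-Y boxes lie farther before it (median −67).

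The falls in WT and AMPK-KO cells were compared directly. All 40 genes had a smaller fall in AMPK-KO cells, by 0.24 to 1.04 on the log2 scale (median 0.68, against 0.04 over all genes tested, of which 54.3% were in that direction). The difference was not called for any of the 40 or for any other gene by edgeR's quasi-likelihood test (0% called, 0 of 14329), and 0 of the 40 reached an unadjusted p under 0.05, as 2.96% of all genes did in that direction. DESeq2 also called 0 of the 40. The 3 with the lowest unadjusted p were *Cdc20* (difference 0.87, SE 0.50), *Prc1*, which bundles the central spindle (0.72, SE 0.43), and *Mad2l1* (0.73, SE 0.48), each with an adjusted p of 0.9999 by edgeR's quasi-likelihood test. The direction turned with 1 library: without AMPK-KO d8 replicate 1, 16 of the 40 had the smaller fall in AMPK-KO and the median was −0.06, and without WT d0 replicate 2 it was 30 of 40 with a median of 0.11.

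AMPK-KO and WT myoblasts did not differ detectably in these genes at d0. Of the 40, 24 were lower and 16 higher in AMPK-KO, with a median log2 difference of −0.07 against −0.001 over all genes tested. By edgeR 0 of the 40 were called, where 2.83% of all genes were called lower and 0.698% higher, and 0 had an unadjusted p under 0.05, where 12.9% and 8.03% did. DESeq2 called 0 as well. The lowest adjusted p belonged to *Kif20a*, a motor of cytokinesis, with 98.8 and 195.6 CPM in WT and 82.1 and 103.6 CPM in AMPK-KO (log2 difference −0.66, SE 0.39, adjusted p = 0.391, edgeR's quasi-likelihood test). *Spc24* had 25.1 and 31.0 CPM in WT and 37.0 and 39.6 CPM in AMPK-KO (0.45, SE 0.31), the only one of the 40 with both AMPK-KO libraries above both WT libraries, as 23.6% of all genes had. *Foxm1* was the only one with both below, as 25.7% of all genes had, and *Nusap1* had the third lowest adjusted p (−0.47, SE 0.40). For 32 of the 40 both AMPK-KO values lay between the 2 WT values, so the sign followed whichever WT library was kept: without WT d0 replicate 1 the median was −0.43 and 38 of 40 were lower in AMPK-KO, and without replicate 2 it was 0.43 and 37 of 40 were higher. The same comparison had genes that did pass: *Myod1* was lower in AMPK-KO (−3.29), as were 3 of 8 myotube markers, while 0 of 71 other mitotic genes and 0 of 25 DNA replication genes were called.

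At d8 most of the genes had higher values in AMPK-KO than in WT, and none was called. Of the 40, 38 were higher (53% of all genes were), with a median log2 difference of 0.55 against 0.04 over all genes tested. The 2 in the other direction, singled out after their values were seen, were *Cdc25c* (−0.33, SE 0.68) and *Kif20a* (−0.05, SE 0.40). By edgeR 0 of the 40 were called, where 1.36% of all genes were called higher and 3.98% lower, 1 of the 40 had an unadjusted p under 0.05 in the higher direction, where 9.85% did, and DESeq2 called 0. That gene was *Cdc20*, with 9.69 and 8.25 CPM in WT and 22.5 and 11.99 CPM in AMPK-KO (0.95, SE 0.36, adjusted p = 0.184, edgeR's quasi-likelihood test). *Plk1* followed with 5.45 and 6.33 CPM in WT and 15.3 and 8.06 CPM in AMPK-KO (0.99, SE 0.43), and then *Ect2*, which activates RhoA at the cleavage furrow, with 12.1 and 11.9 CPM in WT and 30.9 and 14.4 CPM in AMPK-KO (0.92, SE 0.40). Both AMPK-KO libraries were above both WT libraries for 11 of the 40, as for 30% of all genes.

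The d8 difference depended on 1 library. Without AMPK-KO d8 replicate 1 the median was −0.15 and 14 of 40 were higher. Without replicate 2 it was 1.02, all 40 were higher and edgeR called 2 (1.19% of all genes), *Kif4*, a chromosome-bound motor, and *Mki67*. Replicate 1 also had less of the myotube programme: the 8 myotube markers summed to 1710 CPM there and to 9764 CPM in replicate 2, against 5319 and 7944 CPM in WT d8, and all 8 were lower in replicate 1 than in replicate 2. The most abundant was skeletal actin, *Acta1*, at 1099 and 6423 CPM, and none of the 8 was at 0 in either library. The part of this in the mitotic levels was not tested. Without the filter on low counts, edgeR called 15 of the 40 higher at d8, where it called 3.32% of the 25084 genes then tested.

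In the TET2 clones, all 40 genes had higher values in TET2-S97E than in TET2-WT, and edgeR called 4 in a fit that took the 8 libraries of 4 clones as separate samples. With an estimated correlation between libraries of a clone (0.357), limma-voom called *Mki67* alone (adjusted p = 0.0387, and 0.0579 for *Espl1*, 0.0929 for *Cenpf* and 0.132 for *Ttk*, all with an estimated correlation), and with counts summed per clone edgeR called 0. The fitted differences ranged from 1.37-fold to 3.25-fold, with a median log2 difference of 1.02 against 0.01 over all 13433 genes tested, of which 51.3% were in that direction. edgeR called 4 of the 40 higher, where 3.71% of all genes were, and 27 had an unadjusted p under 0.05, where 12.3% did. DESeq2 called 16 of the 40, where it called 6.36% of all genes higher. For 7 of the 40, *Mki67*, *Espl1*, *Ttk*, *Cenpf*, *Kif20a*, *Kif23* and *Cdc25c*, all 4 TET2-S97E libraries were above all 4 TET2-WT libraries, as for 7.29% of all genes. The mitochondrial share of counts was 1.14% and 1.00% in TET2-WT clone 1 and 1.38% and 2.15% in clone 2. In TET2-S97E it was 2.29% and 2.12% in clone 1 and 2.03% and 2.09% in clone 2. Its part in the mitotic levels was not tested.

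*Mki67* rose the most. It had 43.1 and 31.4 CPM in TET2-WT clone 1, 19.6 and 28.1 CPM in clone 2, 95.8 and 59.9 CPM in TET2-S97E clone 1, and 116.9 and 124.7 CPM in clone 2. The log2 difference was 1.70 (SE 0.28, adjusted p = 0.0112, edgeR's quasi-likelihood test). The groups did not overlap, and the lowest TET2-S97E value was above the highest TET2-WT value. *Espl1* had 11.9 and 11.2 CPM in TET2-WT clone 1, 4.99 and 7.40 CPM in clone 2, 23.7 and 17.2 CPM in TET2-S97E clone 1, and 28.5 and 29.8 CPM in clone 2 (1.48, SE 0.29, adjusted p = 0.0207, edgeR's quasi-likelihood test). *Ttk*, which encodes the checkpoint kinase MPS1, had 7.27 and 7.17 CPM in TET2-WT clone 1, 4.39 and 3.91 CPM in clone 2, 15.4 and 8.58 CPM in TET2-S97E clone 1, and 21.03 and 15.1 CPM in clone 2 (1.40, SE 0.31, adjusted p = 0.0300, edgeR's quasi-likelihood test). Both were free of overlap, and in both TET2-S97E clone 1 replicate 2 came closest to the TET2-WT values. *Cenpf* had 28.8 and 20.1 CPM in TET2-WT clone 1, 9.20 and 15.6 CPM in clone 2, 47.2 and 34.1 CPM in TET2-S97E clone 1, and 40.6 and 40.5 CPM in clone 2 (1.14, SE 0.30, adjusted p = 0.0496, edgeR's quasi-likelihood test).

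Genes outside those 7 overlapped between genotypes. *Cdk1*, the kinase at the head of the programme, had the smallest difference of the 40, with 49.9 and 56.9 CPM in TET2-WT clone 1, 24.9 and 24.0 CPM in clone 2, 46.8 and 32.6 CPM in TET2-S97E clone 1, and 73.4 and 61.2 CPM in clone 2 (0.46, SE 0.34, adjusted p = 0.460, edgeR's quasi-likelihood test). TET2-WT clone 1 was above both libraries of TET2-S97E clone 1. *Ccnb1* had 23.5 and 23.5 CPM in TET2-WT clone 1, 9.43 and 7.05 CPM in clone 2, 30.6 and 15.6 CPM in TET2-S97E clone 1, and 55.3 and 32.4 CPM in clone 2 (1.08, SE 0.46). *Foxm1* had 20.01 and 19.7 CPM in TET2-WT clone 1, 9.79 and 10.1 CPM in clone 2, 31.95 and 18.1 CPM in TET2-S97E clone 1, and 52.8 and 40.4 CPM in clone 2 (1.26, SE 0.36, adjusted p = 0.0660, edgeR's quasi-likelihood test). For *Ccnb1* and *Foxm1* only TET2-S97E clone 1 replicate 2 fell within the TET2-WT range.

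*Plk1* had 17.5 and 19.4 CPM in TET2-WT clone 1, 6.36 and 6.87 CPM in clone 2, 32.4 and 19.4 CPM in TET2-S97E clone 1, and 40.3 and 29.7 CPM in clone 2 (1.28, SE 0.39). *Aurkb* had 11.8 and 13.9 CPM in TET2-WT clone 1, 4.30 and 5.44 CPM in clone 2, 17.1 and 10.6 CPM in TET2-S97E clone 1, and 25.0 and 16.2 CPM in clone 2 (0.96, SE 0.40). *Bub1b* had 19.8 and 18.7 CPM in TET2-WT clone 1, 7.001 and 5.91 CPM in clone 2, 37.5 and 19.8 CPM in TET2-S97E clone 1, and 37.4 and 26.8 CPM in clone 2 (1.24, SE 0.41). In these 3 kinase and checkpoint genes TET2-S97E clone 1 replicate 2 was no higher than the higher of the 2 libraries of TET2-WT clone 1. *Ndc80* had 15.9 and 14.7 CPM in TET2-WT clone 1, 5.67 and 3.31 CPM in clone 2, 24.5 and 10.3 CPM in TET2-S97E clone 1, and 30.4 and 19.7 CPM in clone 2 (1.10, SE 0.50). *Kif11* had 26.2 and 20.4 CPM in TET2-WT clone 1, 7.78 and 6.76 CPM in clone 2, 35.2 and 15.8 CPM in TET2-S97E clone 1, and 40.9 and 30.6 CPM in clone 2 (1.00, SE 0.46). *Tpx2* had 38.9 and 38.3 CPM in TET2-WT clone 1, 16.9 and 15.6 CPM in clone 2, 63.2 and 32.4 CPM in TET2-S97E clone 1, and 79.7 and 57.4 CPM in clone 2 (1.08, SE 0.37). *Ndc80*, *Kif11* and *Tpx2* had their lowest values in TET2-WT clone 2 and their highest in TET2-S97E clone 2 replicate 1, while clone 2 replicate 2 lay below TET2-S97E clone 1 replicate 1. *Cdc20* had 29.1 and 35.3 CPM in TET2-WT clone 1, 9.52 and 8.54 CPM in clone 2, 44.9 and 26.2 CPM in TET2-S97E clone 1, and 69.4 and 44.9 CPM in clone 2 (1.16, SE 0.48). *Anln* had 67.2 and 53.8 CPM in TET2-WT clone 1, 29.3 and 28.4 CPM in clone 2, 87.7 and 44.8 CPM in TET2-S97E clone 1, and 115.1 and 82.0 CPM in clone 2 (0.88, SE 0.34). *Top2a* had 96.1 and 75.1 CPM in TET2-WT clone 1, 39.9 and 41.6 CPM in clone 2, 123.0 and 62.8 CPM in TET2-S97E clone 1, and 174.7 and 134.1 CPM in clone 2 (0.97, SE 0.36). None of these was called.

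The clones of 1 genotype differed too, by a larger median than the genotypes for TET2-WT and a smaller one for TET2-S97E. Whether these sizes differ was not tested. All 40 genes had lower values in TET2-WT clone 2 than in TET2-WT clone 1, from 1.57-fold to 3.64-fold, with a median log2 difference of −1.42 against −0.003 over all 14459 genes tested in the fit of 4 clones. All 40 had both clone 2 libraries below both clone 1 libraries, as did 27.2% of all genes. The 8 myotube markers went the other way, all higher in clone 2 (median log2 difference 2.74), with none called. Of 4 myoblast markers 2 were higher, 1 of them called, and 2 were lower. By edgeR's quasi-likelihood test 9 of the 40 were called lower (adjusted p from 0.0238 to 0.0483 for these 9), where 0.394% of all genes were called. With the replicate number as a block it called more of the 40 and more of all genes, as counted in the closing section. The largest fall was that of *Birc5*, the survivin gene of the passenger complex, with 14.9 and 18.6 CPM in clone 1 and 4.94 and 4.34 CPM in clone 2 (−1.86, SE 0.31), followed by *Cdc20* (−1.85, SE 0.30) and *Ccnb2*, which encodes cyclin B2, with 19.2 and 22.2 CPM in clone 1 and 6.32 and 6.12 CPM in clone 2 (−1.74, SE 0.29). The smallest was that of *Mki67* (−0.65, SE 0.27), the gene with the largest difference between genotypes. Without any 1 of the 4 TET2-WT libraries edgeR called 0 of the 40, with 36 to 38 at an unadjusted p under 0.05 (3.67% to 9.37% of all genes), and between 0 and 27 of all genes were called lower. Without a TET2-S97E library it called 21 or 30, where 0.819% to 0.873% of all genes were called, and DESeq2 called 36, where it called 2.75%.

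In TET2-S97E, 38 of the 40 were higher in clone 2 than in clone 1 (53.4% of all genes were), with a median of 0.58 on the log2 scale against 0.03 over all genes tested. edgeR called 0 of the 40, where 3.35% of all genes were called higher, 12 had an unadjusted p under 0.05, where 10.5% did, and DESeq2 called 3 (4.23% of all genes), *Cdk1*, *Foxm1* and *Cdca8*, the last a passenger complex subunit. These also had the lowest adjusted p by edgeR's quasi-likelihood test, 0.0590 for *Cdk1* (0.77, SE 0.20), 0.0694 for *Cdca8* (0.92, SE 0.26) and 0.0805 for *Foxm1* (0.90, SE 0.26). Adding the replicate number as a block changed this: edgeR then called some of the 40, as counted in the closing section. Without TET2-S97E clone 1 replicate 1 edgeR called 10, where 1.77% of all genes were called, and the median was 1.09. The median was 0.22 without clone 1 replicate 2 and 0.26 without clone 2 replicate 1, with 0 of the 40 called in both fits (1.5% and 1.87% of all genes) and 2 at an unadjusted p under 0.05 in each (7.67% and 6.78%). *Cenpf* (−0.0003, SE 0.28) and *Nuf2* (−0.06, SE 0.38), singled out after their values were seen, were the 2 not higher in clone 2. Of 8 myotube markers 7 were lower in clone 2 (median log2 difference of the 8 −1.76), 2 of them called, and 1 was higher. All 4 myoblast markers were lower, 2 of them called.

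**Figure D5:**
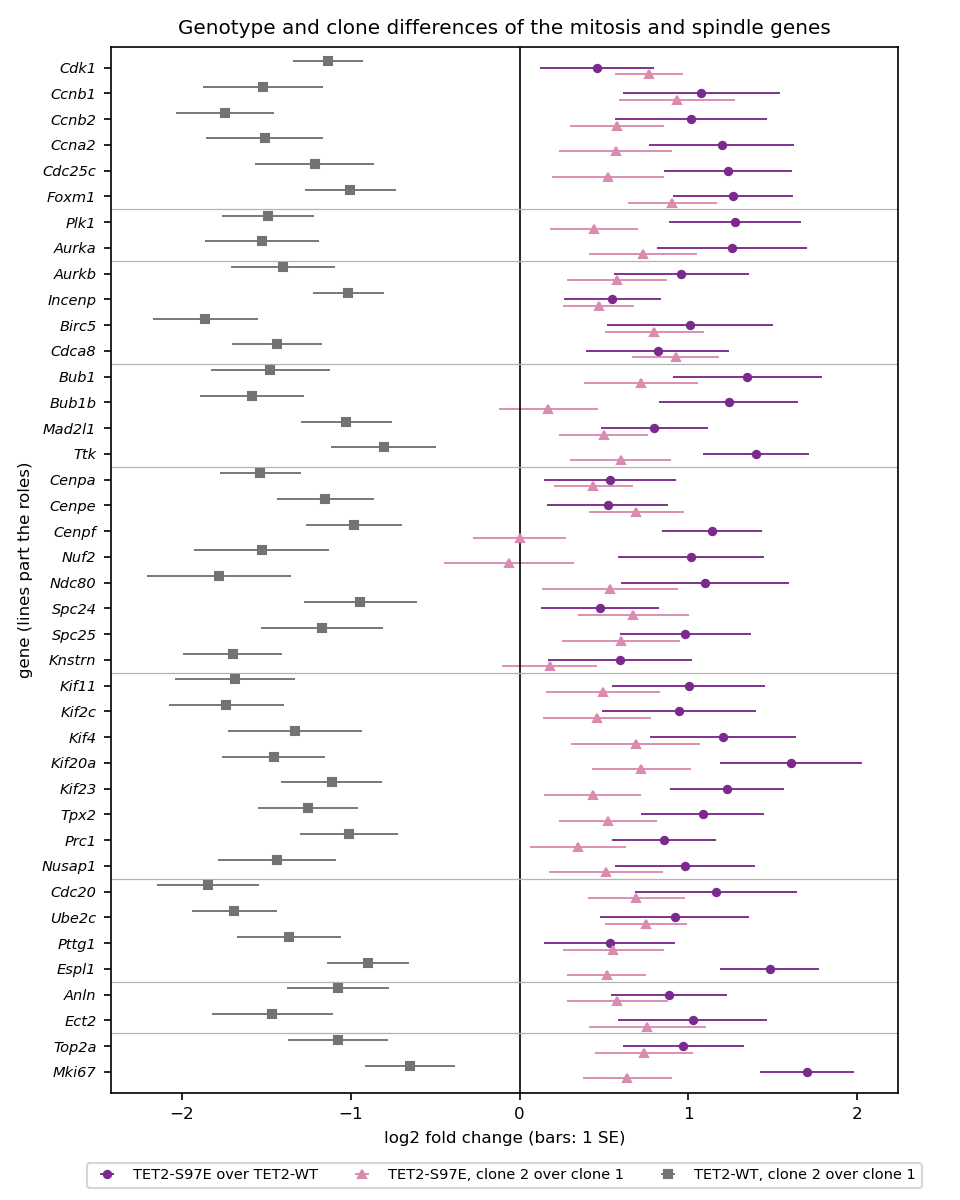
Log2 fold change of each of the 40 genes (rows, grouped by role) for TET2-S97E over TET2-WT (circles), for TET2-S97E clone 2 over clone 1 (triangles) and for TET2-WT clone 2 over clone 1 (squares), with bars of 1 SE from the edgeR fits. All circles lie between 0.46 and 1.70 and all squares between −1.86 and −0.65, so that the genotype difference and the TET2-WT clone difference overlap in size.

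How the clones entered the test changed the genotype result. With counts summed per clone, 2 against 2, edgeR called 0 of the 40 and 0 of all genes tested, 7 of the 40 had an unadjusted p under 0.05 in the higher direction, where 5.36% of all genes did, and all 40 stayed higher in TET2-S97E. With clone as a random effect, limma-voom called *Mki67* alone, where it called 0.677% of all genes. Without TET2-WT clone 2 the median log2 difference was 0.47 and without TET2-WT clone 1 it was 1.91, and edgeR called 1 and 8 of the 40, where 2.24% and 0.703% of all genes were called. Without TET2-S97E clone 1 it called 5 (3.41% of all genes), and without TET2-S97E clone 2 it called 1 (4.88%). *Mki67* passed in all of the fits that left out a library or a clone (log2 difference from 1.35 to 2.06), and it did not pass with counts summed per clone (adjusted p = 0.277, edgeR's quasi-likelihood test). The count of 4 became 2 without TET2-WT clone 1 replicate 2, TET2-WT clone 2 replicate 1, TET2-S97E clone 1 replicate 1, or either replicate of TET2-S97E clone 2, where 1.16% to 3.51% of all genes were called.

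Other cell cycle genes and the differentiation markers were called in the same TET2 comparison, in the fit that took the libraries as separate samples. With counts summed per clone edgeR called 0 of all genes tested, so that every call given here was lost. Of 71 other mitotic genes 8 were called higher, where 3.71% of all genes were, including *Psrc1* (1.10), *Kif14*, a midbody motor (1.49), and *Pkmyt1*, which inhibits CDK1 (1.35), and of 25 DNA replication genes 7 were, including the ribonucleotide reductase subunits *Rrm1* (0.93) and *Rrm2* (1.71) and the polymerase gene *Pole* (1.49). *Mybl2* (1.80) and the condensin subunit *Ncapd2* (1.13) were each the only gene of their list called higher, although 7 of 12 and 17 of 18 had higher values, and none of 16 APC/C genes was called. Of 8 tested cell cycle exit genes 3 were called higher, *Cdkn1a* (1.70), *Rb1* (0.85) and *Ccnd3* (0.72). All 8 myotube markers were called higher, with a summed level of 17.9 and 20.4 CPM in TET2-WT clone 1, 32.03 and 214.5 CPM in clone 2, 4776 and 1656 CPM in TET2-S97E clone 1, and 1564 and 358.7 CPM in clone 2. The most abundant of the 8 was *Acta1* in all 4 TET2-S97E libraries, and only *Myh1* was at 0, in 1 library of TET2-WT clone 1. In both TET2-S97E clones replicate 1 had a higher sum of the mitotic genes and of the myotube markers than replicate 2, with 7 of 8 markers higher in clone 1 and 8 of 8 in clone 2. In AMPK-KO d8, replicate 1 had the higher sum of the mitotic genes and the lower sum of the markers. The part of the myotube markers in the mitotic levels was not tested.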

How the data were processed

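Both tables held counts per gene that the authors deposited without normalization. Per the submitters' processing notes and the study's methods, reads were handled with bcl2fastq 2.17, Trim Galore 0.4.5, STAR 2.5.3a and featureCounts 1.5.3 on GRCm38, with GENCODE M12 for the counts. Here, gene IDs were named from GENCODE M21, which held 49326 of the 49585 IDs and gave merged exon lengths for TPM. CPM used TMM library sizes. Each table was tested on its own with edgeR 4.0.16 (quasi-likelihood, filterByExpr, Benjamini-Hochberg over all genes tested, threshold 0.05) in R 4.3.3, with groups from the labels. The SE is the size of the log2 fold change before edgeR's shrinkage, divided by the square root of the F statistic. Printed log2 fold changes are the shrunken ones. Alternatives used DESeq2 1.42.0, limma 3.58.1 with statmod 1.5.0, DESeq2 size factors, no filter, a replicate block, other sample sets and each library left out. With 2 libraries against 2, an exact two-sided permutation test cannot give a p below 0.333.

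The 40 genes and the other lists were chosen with earlier results of these data known. Values in every library are given for 15 genes fixed by role. Others named are at most 3 with the largest called change, or the lowest adjusted p (ties by unadjusted p), per comparison or list. Remaining genes were named after their values were seen. The scripts were tested on simulated data.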

Additional observations from a re-analysis of the deposited data

How the results depend on the processing

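The direction of the 40 genes from d0 to d8 was the same under every alternative run in both genotypes, but counts of calls moved. In WT, between 0 and 40 were called lower when each library was left out in turn, and in AMPK-KO between 0 and 40. These fits have fewer samples, and the lone library left in a group is assumed to vary like the other groups. The count higher in AMPK-KO at d8 was 15 with no filter on low counts (3.32% of all genes called) and 0 to 2 with a library left out. For TET2-S97E against TET2-WT it was 16 by DESeq2 (6.36% of all genes), 8 with no filter (2.44%), 0 with counts summed per clone (0%), 1 by limma-voom with a random effect of clone (0.677%), 8 without TET2-WT clone 1 (0.703%), 1 without TET2-WT clone 2 (2.24%), 1 without TET2-S97E clone 2 (4.88%) and 2 to 6 with a library left out. For TET2-S97E clone 2 against clone 1 it was 3 by DESeq2 (4.23%), 11 with no filter (3.23%) and 0 to 10 with a library left out. For TET2-WT clone 2 against clone 1 the count lower was 36 by DESeq2 (2.75%), 38 with no filter (2.06%) and 0 to 30 with a library left out. The causes were not tested.

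By the labels, replicates 1 and 2 shared only a number, and the labels do not say what it stands for. In the second table depth went with it: replicate 1 libraries had at most 21456971 counts and replicate 2 libraries at least 27394406. In the first table depth did not part by number. Whether the number marks a batch was not tested. Deviations of same-numbered libraries correlated at 0.130 to 0.369 in the first table and at −0.061 to 0.544 in the second. With the number as a replicate block, edgeR called 40 genes lower from d0 to d8 in WT and 38 in AMPK-KO (40 and 40 without it, with 8.55% and 6.13% of all genes called against 6.58% and 4.95%), 3 higher in TET2-S97E than in TET2-WT (4 without it, with 3.2% against 3.71%), 6 higher in TET2-S97E clone 2 than in clone 1 (0 without it, with 5.55% of all genes called against 3.35%) and 34 lower in TET2-WT clone 2 than in clone 1 (9 without it, with 2.19% against 0.394%), so that the block changed the calls between clones.

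Under the alternatives 890 values of single genes were compared, covering only the genes singled out per comparison and not all 40. Of these, 720 kept direction and side of the threshold, 142 lost the call, 27 gained one and 1 changed sign. The sign change was that of *Cdk1* in TET2-S97E against TET2-WT, at −0.0042 without TET2-WT clone 2 (adjusted p = 0.995, edgeR's quasi-likelihood test). Over all 40, many more signs turned between AMPK-KO and WT at d0 and at d8 with 1 library left out, as given above. The lowest count of any of the 40 genes in any library was 20 (AMPK-KO d8 replicate 2).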
